A study of Rattus norvegicus with 8 samples.

Results

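The comparison described here sets the renal cortex of vesicle-treated DOCA-salt rats (group DOCA-EVs, 2 arrays) against that of nephrectomised rats on standard sodium (group UNX, 2 arrays). Its members are the miRNAs that the scanner software called detected on both arrays of at least 1 of these groups, which gave 229 of the 758 rat miRNAs on the array (30.2%). Of the 229 members, 207 were detected on both arrays of both groups, 9 on both DOCA-EVs arrays but not on both UNX arrays, and 13 on both UNX arrays but not on both DOCA-EVs arrays. The groups were taken from the sample titles and the members from detection calls.

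The series measured miRNAs in the renal cortex of male rats with one-colour arrays and held 4 groups of 2 arrays. In the UNX group, rats had 1 kidney removed, ate chow with 0.5% sodium and received soybean oil as vehicle. DOCA rats were nephrectomised, ate chow with 1.5% sodium and received deoxycorticosterone acetate (DOCA, a mineralocorticoid) at 8 mg/kg, given 2 times a week, with weekly intravenous vehicle from week 2. DOCA-EVs rats were treated as DOCA rats were, except that the weekly injection held extracellular vesicles of adipose mesenchymal cells. SHAM rats were sham-operated and kept on standard sodium. The comparison with UNX addresses what remains different, or is new, after vesicle treatment. UNX and DOCA-EVs rats share the nephrectomy and differ in DOCA, dietary sodium and vesicles at once. DOCA and sodium cannot be told apart, while the DOCA group, which had both without vesicles, is given beside the results. The labels do not say whether the 2 samples of a group came from separate animals, so p-values measure the spread between these samples. Strain and age are not given in the labels, which place sacrifice 9 weeks after nephrectomy in the protocol and at 8 weeks in the sample descriptions.

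A miRNA is a short RNA that pairs with messenger RNAs mainly through its seed, the bases near its 5′ end, and lowers their translation or stability. miRNAs with the same seed share many predicted targets, and miRNAs of neighbouring hairpins are often cut from 1 transcript. In the kidney, miR-192 and miR-194 are enriched in the tubule epithelium and the miR-200 family keeps epithelial cells from turning mesenchymal by repressing ZEB1 and ZEB2. miR-155 is induced in activated leukocytes, miR-132 and miR-212 respond to CREB signalling, miR-21 is induced in kidney injury and fibrosis, and miR-221 and miR-222 are known in vascular cells and as repressors of the cell cycle inhibitor p27. DOCA with salt and nephrectomy is a model of mineralocorticoid hypertension with injury of the heart and kidney.

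The sequences below are those of the 6 miRNAs that passed the test, of the neighbours of 3 of them, and of 3 further members to which the results return. They are RefSeq mature sequences (assembly GRCr8), written 5′ to 3′ with the seed, bases 2 to 8, in capitals. RefSeq held a mature sequence for 207 of the 229 members.
miR-221-3p: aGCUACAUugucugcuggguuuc
miR-222-3p: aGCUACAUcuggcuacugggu
miR-132-3p: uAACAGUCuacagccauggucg
miR-212-3p: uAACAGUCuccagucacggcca
miR-200c-3p: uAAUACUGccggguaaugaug
miR-141-3p: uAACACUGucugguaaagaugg
miR-155-5p: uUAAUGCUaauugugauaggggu
miR-192-5p: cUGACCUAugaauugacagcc
miR-194-5p: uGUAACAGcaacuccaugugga
miR-21-5p: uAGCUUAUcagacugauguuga
miR-31a-5p: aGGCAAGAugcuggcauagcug
miR-210-3p: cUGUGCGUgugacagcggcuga
miR-221-3p and miR-222-3p have the same seed, GCUACAU, and lie in 1 hairpin cluster on the plus strand at chrX:6022621-6023290. miR-132-3p (chr10:60522091-60522112, plus strand) and miR-212-3p (chr10:60521811-60521832, plus strand) share the seed AACAGUC. miR-200c-3p (chr4:159209969-159209989) and miR-141-3p (chr4:159209540-159209561), both on the minus strand, are neighbours whose seeds differ. miR-192 and a copy of miR-194 lie together on the plus strand at chr1:212994024-212994318, also with different seeds. miR-155-5p lies on the plus strand at chr11:37261117-37261139.

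Levels are log2 of the normalized signal: the processed signal was divided by the array's 75th percentile over the probes detected on all arrays, and summed over the probes of each miRNA. The software detected 241 and 243 miRNAs on the UNX arrays and 264 and 225 on the DOCA-EVs arrays. The array of DOCA-EVs replicate 2 stood apart with DOCA replicate 2 in a control probe (dmr_3), at 1136 and 1005 against 2200 to 2415 on the 6 other arrays. The median absolute difference between replicates over the members was 0.35 in DOCA-EVs, 0.17 in UNX, 0.24 in DOCA and 0.058 in SHAM. Each group filled 1 column of the slide, so column and group cannot be told apart, while replicate numbers 1 and 2 were its rows 1 and 2. Tubule markers, such as miR-192-5p and miR-10a-5p, were detected on all 8 arrays, whereas miR-1-3p and miR-133a-3p (striated muscle), miR-122-5p (liver) and miR-124-3p (neurons) were detected on 0. Other markers of such organs were present: miR-206-3p and miR-499-5p of striated muscle were detected on 8 arrays, the endocrine miR-375-3p on 4 and the neural miR-9a-5p on 2.

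In all, 5 miRNAs were higher and 1 was lower in the renal cortex of DOCA-EVs rats than of UNX rats at an adjusted p under 0.05 (limma, Benjamini-Hochberg over the 242 miRNAs tested in any group). The 5 that rose were miR-200c-3p, miR-155-5p, miR-221-3p, miR-222-3p and miR-132-3p, and the 1 that fell was miR-192-5p. These 6 calls were 2.48% of all miRNAs tested, 2.07% higher and 0.413% lower, and all 6 were members. Of the 207 members detected on both arrays of both groups, 3 rose and 1 fell. At an unadjusted p under 0.05 the members held 22 higher and 9 lower, where the share over all tested miRNAs was 12.8% (9.09% higher and 3.72% lower). The call count fell to 0 under settings given in the closing section, among them quantile normalization, no scaling and array weights. Nor did it hold when single arrays were left out. Each of the 6 miRNAs kept its direction under the other scalings. The remaining settings could not turn a direction, because the UNX and DOCA-EVs arrays of these 6 did not overlap and their levels stayed the same. Precision is limited by the few arrays: the 95% confidence interval was ± 0.47 at the median over the members, on the log2 scale, and with 2 arrays a group the smallest p of an exact permutation test is 0.333.

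**Figure D1:**
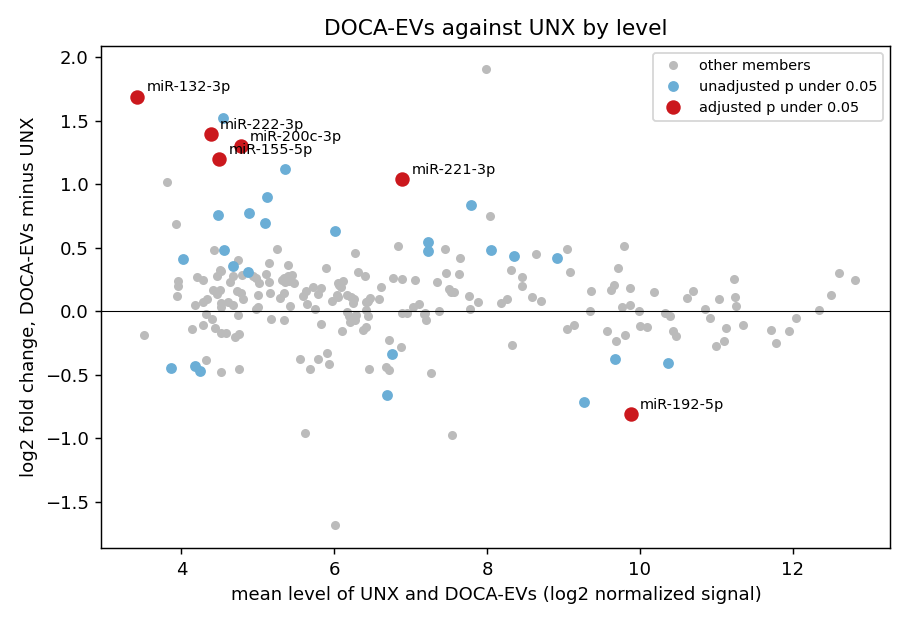
Log2 difference, DOCA-EVs minus UNX (vertical axis), against the mean log2 normalized signal of both groups (horizontal axis) for the 229 members; blue points have an unadjusted p under 0.05 and red points an adjusted p under 0.05. Of the 6 red points, 5 lie above 0 and miR-192-5p lies below, and 203 members lie within 0.5 of 0.

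For most members the difference was small. The difference was under 0.5 in size for 203 of the 229 members and over 1 for 10, of which 9 were higher in DOCA-EVs. The lower and upper deciles were -0.33 and 0.49 and the median was 0.11. The levels of both DOCA-EVs arrays lay outside those of both UNX arrays for 89 members, 52 higher and 37 lower, and this share was 36.8% over all miRNAs tested (21.5% higher and 15.3% lower). With the scaling used, 154 members had a positive value and 75 a negative one (67.4% positive over all miRNAs tested), but the scaling itself moves the median: it was -0.01 with the median of detected probes (109 positive, 120 negative), 0.002 with quantile normalization (115 and 114) and -0.03 with no scaling (101 and 128). The balance of directions over the members therefore depends on the scaling, and the differences below are to be read against a median of 0.11 over all miRNAs tested.

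miR-155-5p, a miRNA of activated lymphocytes and macrophages, rose. Its levels were 3.84 and 3.96 on the UNX arrays and 4.90 and 5.30 on the DOCA-EVs arrays. Both DOCA-EVs arrays lay above both UNX arrays. The fitted difference was 1.20 ± 0.16 (log2, SE, limma adjusted p = 0.0345), and since only 1 of the 2 UNX arrays was above background the fold was at least 1.90. The difference was 1.06 within slide row 1 and 1.33 within row 2. In DOCA rats the levels were 5.25 and 5.31, so both DOCA-salt groups lay above UNX. DOCA against the same UNX arrays gave 1.38 ± 0.16 (limma adjusted p = 0.0182), and DOCA-EVs minus DOCA was -0.18 ± 0.40 (95% confidence interval).

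Other leukocyte miRNAs were measured in the same arrays. Of the 8 leukocyte-list members, 1 passed the test and 7 had positive values, where 2.07% of all miRNAs tested rose and 67.4% were positive. The median difference was 0.47 against 0.11 over all miRNAs, with a range of 0.074 to 0.47 over the scalings. Of these members, miR-146b-5p and miR-150-3p were detected on both DOCA-EVs arrays but not on both UNX arrays, so they entered through the group where they read high. miR-150-3p gave 0.68 ± 0.37, with 1.43 in slide row 1 and -0.059 in row 2. The mean level over the 8 members was 5.63 and 5.80 in UNX, 6.12 and 6.47 in DOCA-EVs, and 6.60 and 6.79 in DOCA. miR-146b-5p, a relative of the NF-kB-induced miR-146a, was at 3.55 and 4.04 in UNX, 4.56 and 6.05 in DOCA-EVs and 6.21 and 6.37 in DOCA. Its groups did not overlap, but the replicates of DOCA-EVs lay far apart and the difference of 1.52 ± 0.47 did not pass (limma adjusted p = 0.24). It was 0.77 without DOCA-EVs replicate 2 and 2.26 without replicate 1, where it passed (limma adjusted p = 0.0169). DOCA minus UNX was 2.50 ± 0.47 (limma adjusted p = 0.0514), which passed with the replicate number as a block (limma adjusted p = 0.0272). miR-146b-5p was above background on no UNX array, so the fold was at least 2.14. miR-146a-5p itself, with the same seed, gave 0.11 ± 0.12, a value that turned negative under 5 other scalings. For the myeloid miR-223-3p the difference was 0.46 ± 0.21, for the lymphocyte miR-150-5p 0.48 ± 0.18 and for the pan-leukocyte miR-142-3p 0.19 ± 0.27, none past the threshold. In bulk tissue, more cells of a type and more RNA per cell cannot be told apart, and the part that leukocyte content had in the rise of miR-155-5p was not tested.

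miR-132-3p rose, whereas its neighbour miR-212-3p did not pass. miR-132-3p was at 2.36 and 2.80 on the UNX arrays, at or close to the signal floor, and at 3.91 and 4.62 on the DOCA-EVs arrays. The groups did not overlap, and the fitted difference was 1.69 ± 0.27 (limma adjusted p = 0.038), with 1.55 in slide row 1 and 1.83 in row 2. No UNX array and only 1 DOCA-EVs array were above background, so no fold is given. DOCA arrays read 4.67 and 4.55, and DOCA against UNX gave 2.03 ± 0.27 (limma adjusted p = 0.0182). miR-212-3p, above background on all arrays of both groups, was at 5.27 and 5.99 in UNX and 5.63 and 6.02 in DOCA-EVs. Its groups overlapped and the difference was 0.19 ± 0.39.

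miR-221-3p and miR-222-3p, which share a seed and a hairpin cluster, both rose. miR-221-3p was at 6.51 and 6.24 in UNX and 7.57 and 7.25 in DOCA-EVs, above background on every array. Both DOCA-EVs arrays exceeded both UNX arrays, by 2.06-fold (1.04 ± 0.16, limma adjusted p = 0.038; 0.40 with normexp), with 1.06 in slide row 1 and 1.02 in row 2. miR-222-3p was at 3.94 and 3.43 in UNX, where it was above background on no array, and at 5.09 and 5.07 in DOCA-EVs. It rose at least 1.88-fold (1.39 ± 0.24, limma adjusted p = 0.0404), with 1.15 and 1.64 in the slide rows. With the replicate number as a block its adjusted p was 0.0556, past the threshold no longer. The DOCA arrays lay between, at 7.10 and 7.06 for miR-221-3p and 4.81 and 4.60 for miR-222-3p. DOCA minus UNX was 0.70 ± 0.16 and 1.02 ± 0.24, both with a limma adjusted p of 0.0733, and DOCA-EVs minus DOCA was 0.34 ± 0.16 and 0.37 ± 0.24, neither past the threshold.

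miR-200c-3p rose, and among the 6 it was the one whose DOCA arrays overlapped those of UNX. It was at 4.25 and 4.02 in UNX, 4.50 and 4.13 in DOCA and 5.40 and 5.46 in DOCA-EVs. The 2 DOCA-EVs arrays lay above all 6 others, including SHAM at 4.50 and 4.30. The difference from UNX was 1.30 ± 0.18 (limma adjusted p = 0.0345), at least 2.35-fold with 1 UNX array above background, and 1.16 and 1.44 in the slide rows. DOCA minus UNX was 0.18 ± 0.18, and DOCA-EVs minus DOCA was 1.12 ± 0.18, which did not pass after adjustment (limma adjusted p = 0.0688). miR-141-3p, cut from the neighbouring hairpin, read 6.50 and 6.66 in UNX and 6.63 and 7.55 in DOCA-EVs. These groups overlapped and the difference was 0.51 ± 0.38. The family members encoded elsewhere gave smaller values. miR-200b-3p differed by -0.01 ± 0.12, miR-200b-5p by 0.26 ± 0.16, miR-200a-3p by -0.23 ± 0.19 and miR-429 by -0.16 ± 0.15. Of the 6 miR-200 family members, 3 had positive and 3 negative values, with 1 called.

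**Figure D2:**
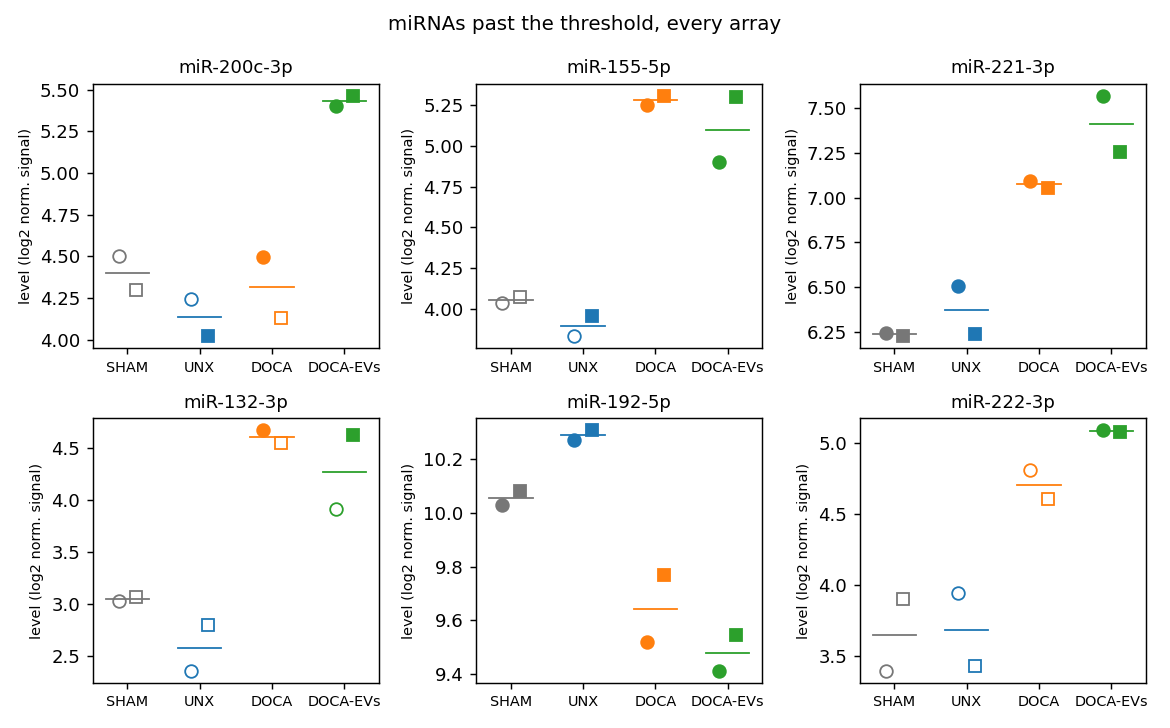
Log2 normalized signal of the 6 miRNAs past the threshold on all 8 arrays; circles are replicate 1, squares replicate 2, filled symbols are above background and open symbols are not, and lines are group means. The vertical axes do not start at 0 and differ between panels. The DOCA-EVs arrays lie above the UNX arrays in 5 panels and below them for miR-192-5p.

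miR-192-5p, the tubule-enriched miRNA, fell. It was at 10.27 and 10.31 in UNX and at 9.41 and 9.55 in DOCA-EVs. The groups did not overlap, and the level was 1.75-fold lower in DOCA-EVs (-0.81 ± 0.14, limma adjusted p = 0.0404), with -0.86 in slide row 1 and -0.76 in row 2. SHAM arrays read 10.03 and 10.08 and DOCA arrays 9.52 and 9.77, so both DOCA-salt groups lay below both groups on standard sodium. DOCA minus UNX was -0.65 ± 0.14 (limma adjusted p = 0.0626), and DOCA-EVs minus DOCA was -0.16 ± 0.34 (95% confidence interval). The other 2 members of the same hairpin cluster were also lower without passing the test. miR-194-5p was at 9.54 and 9.72 in UNX and 8.72 and 9.11 in DOCA-EVs (-0.71 ± 0.17, limma adjusted p = 0.102). miR-192-3p, the opposite arm, gave -0.47 ± 0.18 (limma adjusted p = 0.358) and was above background on both UNX arrays and on no DOCA-EVs array, at least 1.31-fold lower.

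Of the 8 tubule-list members, 1 fell, 7 had negative values and 6 had DOCA-EVs arrays below both UNX arrays, where 0.413% of all miRNAs tested fell and 15.3% lay below without overlap. The list's median difference was -0.29, between -0.43 and -0.10 over the scalings, against 0.11 over all miRNAs. It was -0.48 without DOCA-EVs replicate 2 and -0.15 without replicate 1. miR-204-5p, expressed in tubule epithelium, differed by -0.38 ± 0.17, miR-10a-5p by -0.13 ± 0.12 and miR-10b-5p by -0.12 ± 0.12. The same list gave a median of -0.50 in DOCA against UNX. Fewer tubule cells and less miRNA per cell cannot be told apart in these data.

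Among miRNAs linked to kidney injury and fibrosis, 1 of 8 members rose (miR-132-3p), and all 8 had positive values. Over all miRNAs tested, 2.07% rose and 67.4% were positive. miR-132-3p was detected on both DOCA-EVs arrays and no UNX array, so it entered the list through the group where it read high. The list's median was 0.52, from 0.19 to 0.52 over the scalings, and 5 of the 8 had DOCA-EVs arrays above both UNX arrays, beside 21.5% of all miRNAs tested. The value rested in part on DOCA-EVs replicate 2: the median was 0.19 without that array and 0.94 without replicate 1. miR-21-5p shows this: UNX arrays read 11.03 and 11.17, DOCA-EVs replicate 1 read 10.80 and replicate 2 read 11.91. One vesicle-treated array thus lay below UNX and the other above, and the difference of 0.26 ± 0.34 (limma adjusted p = 0.845) was -0.30 without replicate 2. The DOCA arrays read 12.14 and 12.23, above both. DOCA-EVs minus DOCA was -0.83 ± 0.82 (95% confidence interval, limma adjusted p = 0.466). Its passenger strand miR-21-3p, above background on both DOCA-EVs arrays and no UNX array, read 1.87-fold higher in DOCA-EVs without passing (0.90 ± 0.24, limma adjusted p = 0.159). That difference was 0.55 without DOCA-EVs replicate 2 and 1.24 without replicate 1. It was 1.68 with the software's total gene signal, where miR-21-3p passed (limma adjusted p = 0.0477), and 0.078 with normexp (limma adjusted p = 0.576). The p53-induced miR-34a-5p was at 6.91 and 6.98 in UNX, 7.50 and 7.49 in DOCA-EVs and 7.53 and 7.65 in DOCA. Its DOCA-EVs arrays lay above UNX, with a difference of 0.55 ± 0.12 that did not pass (limma adjusted p = 0.0882).

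**Figure D3:**
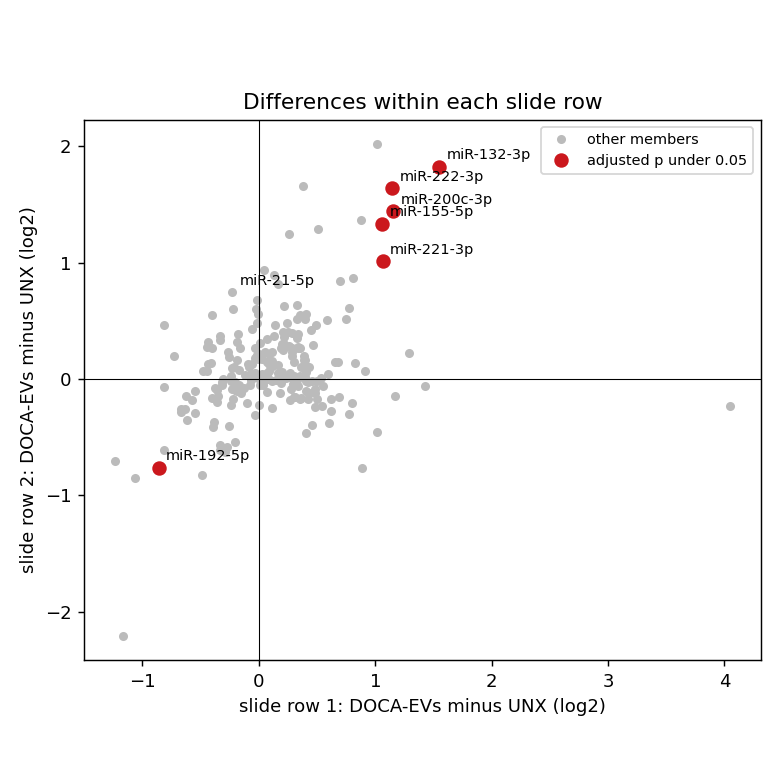
Difference DOCA-EVs minus UNX within slide row 1 (horizontal axis, replicate 1 of each group) against that within slide row 2 (vertical axis, replicate 2), on the log2 scale, 1 point per member. The 6 miRNAs past the threshold have the same sign in both rows, which is fixed because their UNX and DOCA-EVs arrays do not overlap. miR-21-5p, whose arrays overlap, is at -0.23 in row 1 and 0.75 in row 2.

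The miRNAs that follow stood out by p without passing, and 2 of them passed with the replicate number as a block. miR-31a-5p was at 5.08 and 4.51 in UNX, 4.72 and 4.62 in DOCA and 5.95 and 5.88 in DOCA-EVs. The 2 vesicle arrays lay above all 6 others, and the difference from UNX was 1.12 ± 0.22 (limma adjusted p = 0.069, and 0.0344 with the block). miR-99b-3p gave 0.77 ± 0.20 (limma adjusted p = 0.156, and 0.0457 with the block), a 1.71-fold reading with only 1 UNX array above background. The hypoxia-induced miR-210-3p was at 5.66 and 5.73 in UNX, 5.62 and 5.49 in DOCA and 6.41 and 6.25 in DOCA-EVs. Here too the vesicle-treated arrays lay above all others, with a difference of 0.63 ± 0.13 (limma adjusted p = 0.0882). DOCA-EVs minus DOCA was 1.25 ± 0.22 for miR-31a-5p and 0.78 ± 0.13 for miR-210-3p, both with a limma adjusted p of 0.0688. DOCA minus UNX was -0.13 ± 0.22 and -0.14 ± 0.13 for these 2. miR-320-3p gave 0.69 ± 0.15 against UNX (limma adjusted p = 0.0939) and 0.58 ± 0.15 in DOCA against UNX.

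On the lower side, miR-192-5p and miR-194-5p had the smallest p-values, followed by miR-218a-5p, miR-30e-3p and miR-192-3p. Next came miR-133b-3p (not above background on any array of either group), miR-22-5p, miR-26b-5p, miR-143-3p and miR-96-5p. miR-218a-5p was at 7.11 and 6.94 in UNX and 6.62 and 6.12 in DOCA-EVs, without overlap (-0.66 ± 0.21, limma adjusted p = 0.248). miR-26b-5p was at 10.59 and 10.54 in UNX and 10.19 and 10.13 in DOCA-EVs, again without overlap (-0.40 ± 0.16, limma adjusted p = 0.363). miR-22-5p gave -0.43 ± 0.17 and miR-96-5p, of the miR-183 cluster of epithelial and sensory cells, -0.42 ± 0.17. Of the miRNAs named on this side only miR-192-5p passed the test. Against the same UNX arrays, DOCA gave -0.40 for miR-218a-5p, -0.49 for miR-26b-5p and for miR-22-5p, and -0.31 for miR-96-5p.

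**Figure D4:**
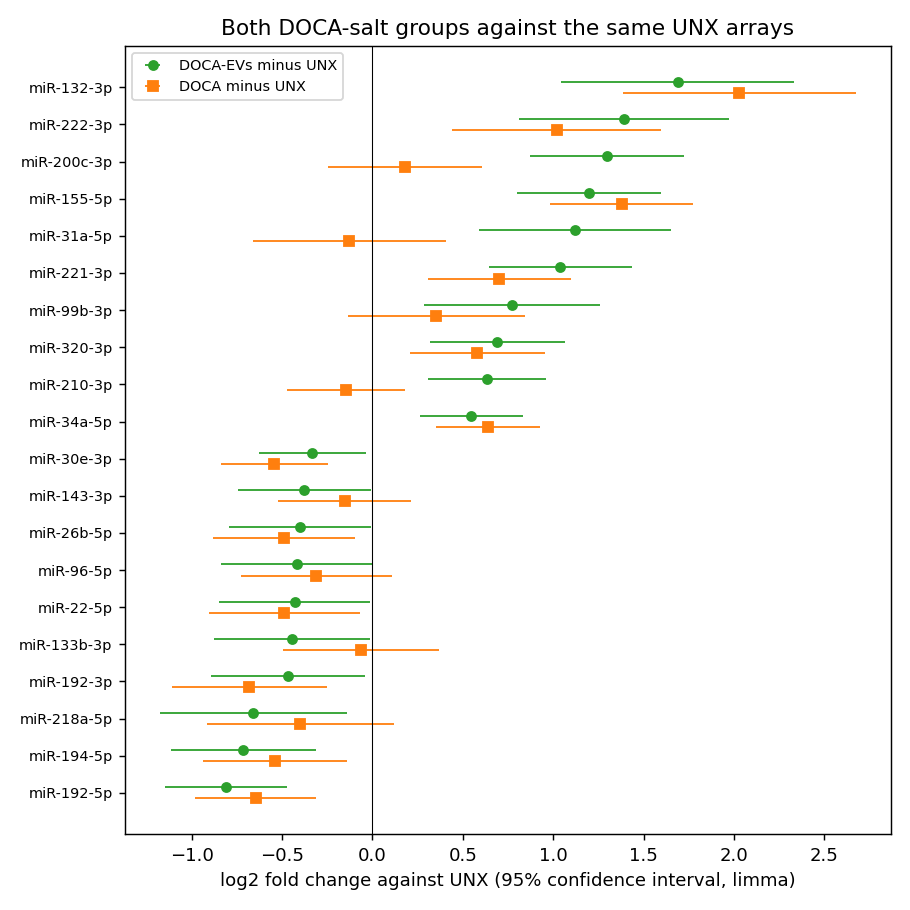
Log2 difference from the same UNX arrays for DOCA-EVs (green circles) and DOCA (orange squares), with 95% confidence intervals from limma, for the 10 miRNAs of smallest p in each direction. Since both share the UNX arrays they are not independent; for miR-200c-3p, miR-31a-5p, miR-210-3p, miR-99b-3p, miR-218a-5p, miR-133b-3p and miR-143-3p the DOCA interval includes 0 and the DOCA-EVs interval does not, which is no test of their difference.

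In the direct comparison of DOCA-EVs with DOCA, 0 of 242 miRNAs passed (limma, 0% at an adjusted p under 0.05 and 10.3% at an unadjusted p under 0.05, 25 miRNAs). This depended on the scaling. miR-31a-5p passed with the median of detected probes, quantile normalization and normexp. miR-200c-3p passed with the median and with quantile normalization, and miR-210-3p with the median and with normexp. None passed with the 75th percentile of all probes, no scaling or the total gene signal. With the scaling used, DOCA-EVs against SHAM also called 0, with 32 at an unadjusted p under 0.05 (13.2%). DOCA against UNX called 4 (1.65%). Of these, the 3 that rose (1.24%) were members of the comparison with DOCA-EVs: miR-155-5p, miR-132-3p and miR-188-5p. For miR-188-5p, named after its values were seen, levels were 4.47 and 4.16 in UNX, above background on no array, 4.794 and 4.803 in DOCA-EVs and 5.41 and 5.47 in DOCA. DOCA-EVs read 1.40-fold above UNX without passing (limma adjusted p = 0.209), and the limma adjusted p of DOCA against UNX was 0.0182. The comparisons share the UNX or the DOCA-EVs arrays, so their calls are not independent.

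Some miRNAs were detected on both arrays of only 1 group. Of the 9 detected in this way in DOCA-EVs, 2 passed the test, miR-132-3p and miR-222-3p, and such miRNAs entered the comparison through the group where they read high. Others of these 9 were miR-146b-5p, miR-34b-5p (1.02 ± 0.53, above background on only 1 DOCA-EVs array) and miR-125a-3p (0.40 ± 0.19). Of the 13 detected in this way in UNX, 0 passed the test by limma. Only miR-133b-3p and miR-9a-5p of these 13 were detected on no DOCA-EVs array, and neither was above background on any array of either group, so no fold is given for these muscle and neural miRNAs. The 11 others were detected on 1 DOCA-EVs array.

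No member of the let-7, miR-29, miR-30, miR-17-92 or miR-23, miR-24 and miR-27 lists passed the test. Of the 11 let-7 list members, which act in differentiation, 8 were positive and 0 passed, with a median of 0.13 that ran from -0.01 to 0.13 over the scalings. let-7e-5p was the highest at 0.34 ± 0.16 and let-7g-5p the lowest at -0.23 ± 0.11. All 5 members of the miR-99b, let-7e and miR-125a hairpin cluster on chromosome 1 were positive, from 0.34 to 0.77, with 0 called. Over all miRNAs tested 67.4% were positive, and the cluster was picked after values were seen. All 5 stayed positive over the scalings, down to 0.021 for miR-125a-3p and 0.057 for miR-99b-3p with normexp. miR-125a-3p entered through the DOCA-EVs arrays, being detected on only 1 UNX array. The 4 members of the collagen-repressing miR-29 family had a median of -0.12, with miR-29c-3p at -0.28 ± 0.13, miR-29b-3p at -0.25 ± 0.17 and miR-29a-3p at 0.01 ± 0.14, which turned negative under 5 other scalings. The 10 members of the miR-30 family, known in podocytes and tubules, split into 4 positive and 6 negative with a median of -0.12, and included miR-30e-3p at -0.33 ± 0.12 and miR-30a-5p at -0.11 ± 0.17. For the miR-17-92 cluster and its paralogues the median was 0.06, from -0.12 to 0.06 over the scalings, and miR-92a-3p was highest at 0.43 ± 0.13 (limma adjusted p = 0.209). The median for the miR-23, miR-24 and miR-27 clusters was 0.11 and turned to -0.03 under another scaling.

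Among 20 members of a list of miRNAs abundant in vesicles of mesenchymal stromal cells, 2 rose (miR-221-3p and miR-222-3p), 16 were positive and 4 negative. Over all miRNAs tested, 2.07% rose and 67.4% were positive. miR-222-3p entered through the DOCA-EVs arrays, being detected on only 1 UNX array. Both miRNAs that rose also read higher on the DOCA arrays, without vesicles, than on the UNX arrays. miR-31a-5p, also on this list, did not pass (1.12 ± 0.22, limma adjusted p = 0.069). Its DOCA arrays, at 4.72 and 4.62, lay between the UNX arrays at 5.08 and 4.51. The list's median was 0.17 against 0.11 over all miRNAs, and 0.01 without DOCA-EVs replicate 2. let-7b-5p of this list was at 0.30 ± 0.17 and miR-22-3p at -0.15 ± 0.16. Whether any of these miRNAs came from the injected vesicles was not tested. The hypoxia and p53 list had a median of 0.55, down to 0.084 under another scaling, with 5 of 5 members positive and 0 called. Its member miR-34b-5p was detected on both DOCA-EVs arrays and no UNX array. Of the 3 striated muscle members, miR-499-5p was at -0.96 ± 0.41 and miR-206-3p at 0.04 ± 0.42, and miR-133b-3p was above background on no array of either group. The median was 0.03 for the 3 liver, nerve and endocrine members and 0.10 for the 7 members of the imprinted Dlk1-Dio3 cluster, and under other scalings these turned to -0.11 and -0.41. Of the vessel list, miR-126a-3p of endothelium was at -0.15 ± 0.16 and miR-145-5p of smooth muscle at 0.01 ± 0.14. miR-143-3p, also of smooth muscle, was at 9.88 and 9.85 in UNX and 9.31 and 9.67 in DOCA-EVs, without overlap (-0.38 ± 0.15, limma adjusted p = 0.363). The red cell miRNA miR-451-5p was at 8.25 and 7.79 in UNX and 7.02 and 7.09 in DOCA-EVs. Its vesicle-treated arrays lay below UNX, with a difference of -0.97 ± 0.55 that did not pass (limma adjusted p = 0.498), and DOCA read 8.59 and 6.74.

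**Figure D5:**
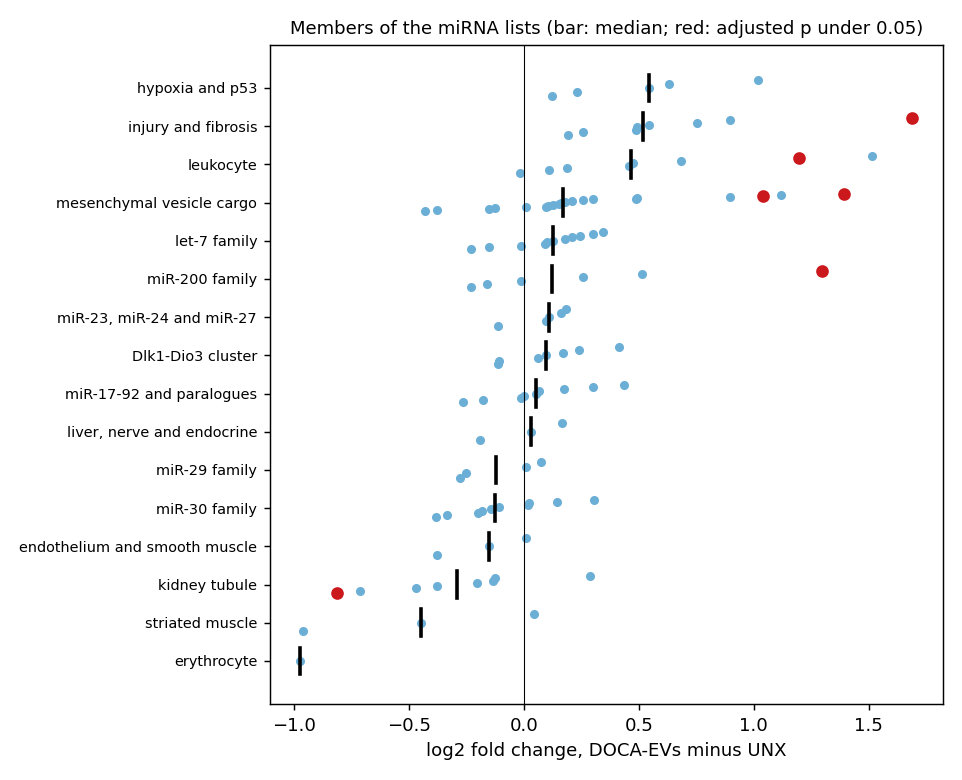
Log2 difference DOCA-EVs minus UNX (horizontal axis) for the members of each of the 16 miRNA lists; each point is 1 miRNA, black bars are list medians and red points have an adjusted p under 0.05. The medians run from -0.97 for the single erythrocyte member to 0.55 for hypoxia and p53.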

How the data were processed

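Renal cortex RNA (100 ng per array) was hybridised to 8 arrays of design 070154 on 1 slide, read with Feature Extraction 11.5.1.1, per the file headers. The deposited intensity values are the processed signal per spot after the software's background subtraction, with no scaling between arrays, and the series table holds the same values. Spots flagged as outliers (8.53%) were left out, spots were averaged per probe, and each array was divided by its 75th percentile over the 271 probes detected on all arrays. Values under 2.57, the mean SD of the negative controls per the file headers, were raised to it, and probes were summed per miRNA before log2. Detection and background flags are deposited columns of 0 or 1. A miRNA was above background where at least 0.5 of the spots of a probe were well above it; bounds on folds use the dimmest miRNA above background on each array.

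limma 3.58.1 in R 4.3.3 was fitted to all 8 arrays with 1 mean per group (4 residual and 2.18 prior degrees of freedom), for the 242 miRNAs detected on both arrays of at least 1 group; 516 were left out. All tests were two-sided, and p-values were adjusted by Benjamini-Hochberg across these 242. Deviations of same-numbered arrays correlated across miRNAs in all 6 pairs of groups, r from 0.245 to 0.557, and the number is the slide row, so the block value is given where it changes a call.

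The members and lists were chosen with earlier results of these data known. The rule for named miRNAs takes those past the threshold, those of smallest p up to 10 per direction, 1 to 4 per list and 8 fixed ones. miR-141-3p, miR-212-3p, miR-34b-5p, miR-146b-5p, miR-21-3p, miR-99b-5p, miR-125a-5p, miR-125a-3p, miR-150-5p, miR-223-3p, miR-188-5p, miR-3584-5p, miR-3588 and miR-1949, and members of lists given without being in the rule, were named after values were seen. Alternatives were other scalings, background correction, filters, arrays and models.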

Additional observations from a re-analysis of the deposited data

How the results depend on the processing

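miR-132-3p, miR-222-3p and miR-200c-3p were not detected on all 8 arrays, so the filter on such miRNAs left them untested. The 6 calls of DOCA-EVs against UNX kept their direction under the other scalings, the only alternatives that could have turned it, but the count did not hold. It was 0 with the 75th percentile of all probes, quantile normalization, no scaling, no filter on dim miRNAs, only the 4 UNX and DOCA-EVs arrays, or array weights, and 1 (0 higher and 1 lower) with normexp and quantile normalization. It was 3 (2 higher, 1 lower) with only miRNAs detected on all 8 arrays, 4 (3 higher, 1 lower) with the median of detected probes or a mean-variance trend, and 7 (6 higher, 1 lower) with the replicate block. Leaving out any 1 array, which leaves 1 array in its group, did not keep the 6 calls. This was also so for SHAM and DOCA arrays, whose removal changes no UNX or DOCA-EVs level. The calls thus rest in part on the spread estimate shared with arrays outside the comparison. With the total gene signal the 6 calls held 4 of the 6, miR-21-3p and miR-9a-5p taking the place of miR-200c-3p and miR-192-5p. Without DOCA replicate 2 and DOCA-EVs replicate 2, a choice made after seeing the data, as was normexp on the median spot signal (the files hold no mean signal), the count was 0. Counts at an unadjusted p under 0.05 ran from 12 to 88. DOCA against UNX, with 4 calls, gave 20 (5 higher, 15 lower) with the median of detected probes, 6 (0 higher, 6 lower, 0 of the 4) with normexp, 1 with quantile normalization, 0 with no scaling, 2 with no filter, 18 with array weights, 9 with the trend, 0 to 15 leaving out each replicate, and 10 without both low-control arrays. DOCA-EVs against DOCA, with 0 calls, gave 4 with the median of detected probes, 3 with quantile normalization, 5 with normexp, 2 with no filter, 0 to 3 leaving out each replicate, and 5 without both low-control arrays. DOCA-EVs against SHAM, with 0 calls, gave 4 with the 75th percentile of all probes, 5 with quantile normalization, 8 with normexp, 2 with the total gene signal, 5 with miRNAs detected on all 8 arrays, 7 with only the members, 5 with the replicate block and 0 to 7 leaving out each replicate. The cause was not tested.

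Over the scalings in turn (75th percentile of all probes, median of detected probes, quantile, none, normexp) the reversed differences were -0.11, -0.11, -0.11, -0.13 and -0.094 for miR-29a-3p, -0.012, -0.0076, -0.057, -0.027 and -0.040 for miR-146a-5p, and -0.091, -0.087, -0.11, -0.11 and -0.028 for miR-7a-2-3p. For miR-23b-3p they were -0.013 and -0.0085 with the first pair of scalings and -0.028 with none. Leaving out each replicate, values that took both signs ran from -0.30 to 0.81 for miR-21-5p, -0.083 to 0.10 for miR-29a-3p, -0.063 to 0.038 for miR-200b-3p, -0.32 to 0.11 for miR-30a-5p, -0.31 to 0.0031 for miR-126a-3p, -0.43 to 0.49 for miR-7a-2-3p, -0.038 to 0.36 for miR-24-3p, -0.29 to 0.068 for miR-494-3p, -0.15 to 0.53 for miR-142-3p and -0.17 to 0.55 for miR-212-3p. Without both low-control arrays miR-21-5p (-0.30), miR-29a-3p (-0.083), miR-24-3p (-0.038), miR-142-3p (-0.15) and miR-212-3p (-0.0066) reversed. The cause was not tested. None of these had passed the threshold. Under normexp the differences of miR-155-5p, miR-132-3p, miR-222-3p, miR-200c-3p and miR-221-3p were 0.13, 0.14, 0.12, 0.15 and 0.40, and that of miR-192-5p was -0.70. The normexp setting added an offset of 50 to each spot signal. An added constant shrinks log2 differences more in dim than in bright miRNAs, and its part in these values was not tested.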

Other observations

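In 2 members with large differences the replicates also lay far apart. miR-3584-5p was at 5.96 and 8.11 in UNX, 10.67 and 10.71 in DOCA and 10.003 and 7.88 in DOCA-EVs. The vesicle-treated and UNX arrays overlapped, and the difference was 1.91 ± 0.87 (limma adjusted p = 0.391). miR-3588 was at 7.41 and 6.30 in UNX and 6.24 and 4.10 in DOCA-EVs, with a difference of -1.68 ± 0.92 (limma adjusted p = 0.498), and both groups were lower on replicate 2. miR-1949 was steadier, at 7.21 and 7.52 in UNX and 8.02 and 8.39 in DOCA-EVs. Its groups did not overlap, and 0.84 ± 0.22 did not pass (limma adjusted p = 0.156). Of the 28 hairpins with both arms among the members, 21 had differences of the same sign on both arms. Since 67.4% of all miRNAs tested were positive under this scaling, many unrelated pairs would share a sign as well. The 4 members with the miR-181 seed ACAUUCA were all positive, the more common direction, with a median of 0.26 and 0 called. The sign came from replicate 2: in slide row 1 all 4 were lower in DOCA-EVs than in UNX, and in row 2 all were higher. For miR-181a-5p, DOCA-EVs and UNX read 8.12 and 8.14 in row 1 and 8.84 and 8.16 in row 2.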
